A study of Mus musculus with 15 samples.

Results

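Heart mesoderm marked by Isl1Cre at E7.75 (the embryonic day) comprised 140 of the 1400 cells of the study, 69 in one library (replicate 1) and 71 in the other (replicate 2). They were chosen as cells with at least 1000 detected genes, under 50 CPM of Epcam (an epithelial adhesion gene) and fewer than 4 of 8 endothelial genes at 20 CPM or more (Cdh5, Pecam1, Esam, Egfl7, Icam2, Emcn, Ramp2 and Kdr). CPM is a gene's count scaled to a common total count per cell. The 2 files held 184 cells, of which 176 had enough genes. The Epcam limit left out 8 and 8 cells, and the endothelial limit 14 and 6. The kept cells were then ordered by Tnnt2, cardiac troponin T. Epcam, the endothelial genes and Tnnt2 therefore chose or ordered the cells, and what is given along the Tnnt2 order within Isl1Cre is a description without a test.

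The study profiled single cells from hearts of mouse embryos between E7.75 and E9.25 in 15 libraries. All embryos carried the Rosa26tdTomato reporter with either Isl1Cre or Nkx2-5Cre, so that a cell in which Cre has acted, and its descendants, keep the reporter. Isl1Cre and Nkx2-5Cre follow where those genes are or were active, not a single cell type, and no reporter gene was among the genes measured. The groups used here were Isl1Cre E7.75, Nkx2-5Cre E7.75 (164 cells by the same rule) and Isl1Cre E8.25 (160 cells), each with 2 libraries. The titles give both Isl1Cre E7.75 libraries the embryo number 3 and both Nkx2-5Cre E7.75 libraries the number 2. Both Isl1Cre E8.25 libraries also carry the number 2 within their own group. Each pair may therefore come from 1 embryo. The p-values cover no more than differences between such libraries, possibly technical ones, and neither lineage nor stage can be told apart from embryo.

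At this stage the heart arises from mesoderm of the cardiac crescent. The first heart field differentiates early and builds the tube, while the second heart field, marked by Isl1, stays proliferative for longer and adds muscle at both poles. Differentiating cells switch on the sarcomere, the actin and myosin machine of contraction, under factors such as Nkx2-5, Gata4, Mef2c, Tbx5 and myocardin, which acts with serum response factor on CArG boxes. Retinoic acid, made by Aldh1a2, and hedgehog signals act on the posterior second heart field.

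Upstream sequences of genes that followed Tnnt2 are shown for the CArG box, the motif of serum response factor, searched by name on both strands. In the RefSeq table (GRCm38.p6), 95 of the 130 genes that rose with Tnnt2, Tnnt2 included, had an entry, and 11 of these (11.6%) held a box in the 250 bases before a start. Of 3747 matched genes among the 4815 past the level filter 62 (1.7%) held one, as did 439 of all 27025 genes of the table (1.6%) and 0 of 60 matched genes that fell. The GATA motif AGATAA, on both strands, was found for 10 of 95 rising, 6 of 60 falling, 253 of 3747 filtered and 3090 of all 27025 genes (10.5%, 10%, 6.8% and 11.4%). A site for MEF2 factors was found for 9 of 95 rising, 0 of 60 falling and 62 of 3747 filtered genes (9.5%, 0% and 1.7%). Of all 27025 genes 923 (3.4%) held it. TATAAA, on the strand of the gene, was found for 7, 2, 159 and 2415 of the same groups (7.4%, 3.3%, 4.2% and 8.9%). A match describes the letters only and was chosen to be shown after the values were known. Capitals mark the CArG box upstream of Myl7, the atrial myosin regulatory light chain, and Actc1, cardiac alpha-actin, printed 5′ to 3′ on the strand of the gene:
Myl7 (chr11:5898783-5899032, strand −): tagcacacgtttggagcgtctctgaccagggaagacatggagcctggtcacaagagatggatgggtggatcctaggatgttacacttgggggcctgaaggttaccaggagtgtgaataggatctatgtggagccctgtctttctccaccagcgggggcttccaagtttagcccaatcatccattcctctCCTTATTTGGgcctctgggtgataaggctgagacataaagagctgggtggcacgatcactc
Actc1 (chr2:114052876-114053125, strand −): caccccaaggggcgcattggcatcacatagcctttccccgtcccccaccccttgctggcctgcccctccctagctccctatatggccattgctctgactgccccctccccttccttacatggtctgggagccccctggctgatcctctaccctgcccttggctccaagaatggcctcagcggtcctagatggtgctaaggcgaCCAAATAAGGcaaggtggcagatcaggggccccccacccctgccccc
The box began 61 bases before the start of Myl7 and 47 bases before that of Actc1. For the other 9 rising genes with a box the surrounding 30 bases were as follows, with 2 starts for Fhl2:
Acta1 (chr8:123894829-123894858, strand −): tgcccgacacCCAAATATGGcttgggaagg
Cnn2 (chr10:79988534-79988563, strand +): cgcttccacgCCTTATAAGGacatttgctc
Fbxl22 (chr9:66514796-66514825, strand −): aaaagaaatcCCTTTTAAGGaaaacttgta
Fermt2 (chr14:45530250-45530279, strand −): tccttcatttCCATAAAAGGgcagcgctcc
Fhl2 (chr1:43163973-43164002, strand −): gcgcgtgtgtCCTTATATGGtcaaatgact
Fhl2 (chr1:43196838-43196867, strand −): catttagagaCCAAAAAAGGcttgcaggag
Myl3 (chr9:110763583-110763612, strand +): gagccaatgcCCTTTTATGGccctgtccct
Myl6 (chr10:128493040-128493069, strand −): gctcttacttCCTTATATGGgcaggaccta
Myl9 (chr2:156775293-156775322, strand +): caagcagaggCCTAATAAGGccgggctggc
Myom1 (chr17:71019448-71019477, strand +): gccttcctggCCATAAAAGGctggctgtgg
Acta1, Myl3, Myl6, Myl9, Myom1 and Cnn2 encode an actin, myosin light chains, an M-band protein and a calponin, and Fhl2 and Fermt2 encode a LIM-domain protein and a protein of integrin adhesions.

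The label was checked against its 5 markers, Sfrp5, Ifitm1, Ntng1, Pdgfra and Ptch1, each seen in at least 25% of the kept cells of both libraries. Their summed level was 696.2 and 658.5 CPM. Pdgfra, a growth factor receptor of mesoderm, was seen in 73.9% and 81.7% of kept cells and averaged 75.3 and 91.8 CPM there, against 3 and 1.3 CPM in the left-out endothelial cells. Ifitm1, an interferon-induced transmembrane gene, was seen in 95.7% and 98.6% of kept cells, and its means of 384.6 and 314.6 CPM lay close to the 369.6 and 366.5 CPM of the endothelial cells. The left-out Epcam cells held some of the markers: Ntng1 averaged 0 and 355.3 CPM there and 31.8 and 32.5 CPM in kept cells, and Ptch1 29 and 20.7 and 32.5 and 61.4 CPM. Over all left-out cells the 5 markers summed to 353.1 and 593.2 CPM, so in replicate 2 their sum was close to that of kept cells. All 9 cardiomyocyte markers were also seen in at least 25% of cells of both libraries. Their summed level was 8194.2 and 8770.7 CPM, far above that of the 5 label markers. By tertile of cells along Tnnt2, this sum went from 1054.9 and 990.7 CPM at the bottom to 16216.3 and 18794.2 CPM at the top. It includes Tnnt2, which ordered the cells. The kept cells thus include cells rich in cardiomyocyte RNA. Of other types, Hbb-bh1, Hba-x, Gata1 and Klf1 (blood), Sox2, Sox1, Sox10 and Foxd3 (neural) and Tcf15, Tbx6 and Msgn1 (paraxial mesoderm) had counts in 0 of 140 cells, which allows a share of cells with a count of up to 2.14% and sets no limit on cells that express a gene below detection. The remaining members of these lists, Alas2 (blood), Pax6 and Pax3 (neural) and Meox1 (paraxial mesoderm), had counts in some cells. The whole lists summed to 0.1 and 0.2 CPM (blood), 0.8 and 2.2 CPM (neural) and 1.2 and 0 CPM (paraxial mesoderm). The highest single cell held 7.8, 89.1 and 85.6 CPM of these lists. Endothelial markers were present: Etv2, the factor that starts the endothelial and blood programme, had counts in 63.8% (52 to 74.1%) and 45.1% (34 to 56.6%) of kept cells (95% Wilson intervals, counting error only). Etv2 averaged 57.8 and 18.3 CPM in kept cells and 586.3 and 854.1 CPM in the left-out endothelial cells.

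At the limits of the rule, the highest Epcam level inside was 44.8 and 24.4 CPM and the lowest outside 170.8 and 87.1 CPM. Of the endothelial genes, 50 and 42 kept cells had 1 at 20 CPM or more and 3 and 2 had 3, next to 5 and 0 left-out cells with 4. Egfl7 was at that level in 85.5% and 62% of kept cells, and Ramp2, the next most frequent, in 10.1% and 11.3%. Kept cells had medians of 105119 and 127704 counts and of 5007 and 5294 genes, and the libraries shared 0 cell names. Depth moved with Tnnt2 in 1 library. The rank correlation of Tnnt2 with a cell's total count was 0.013 in replicate 1 and −0.353 in replicate 2, where the bottom tertile by Tnnt2 had a median of 227344 counts and the top tertile 99814.

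Tnnt2 was detected in every kept cell over a wide range. In replicate 1 the lowest cell had 30.3 CPM, the median 1026.3 and the highest 4437.1 CPM, and in replicate 2 these were 17.1, 1101.5 and 6356.9 CPM. Each library was divided into tertiles of 23 to 25 cells, and the bottom tertiles averaged 109.8 and 131.9 CPM and the top tertiles 2464.4 and 3378.1 CPM. Within 10% of the lower limit lay 2 and 4 cells and within 10% of the upper one 8 and 5 cells, so the tertiles are ranges along an order and not cell types.

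**Figure D1:**
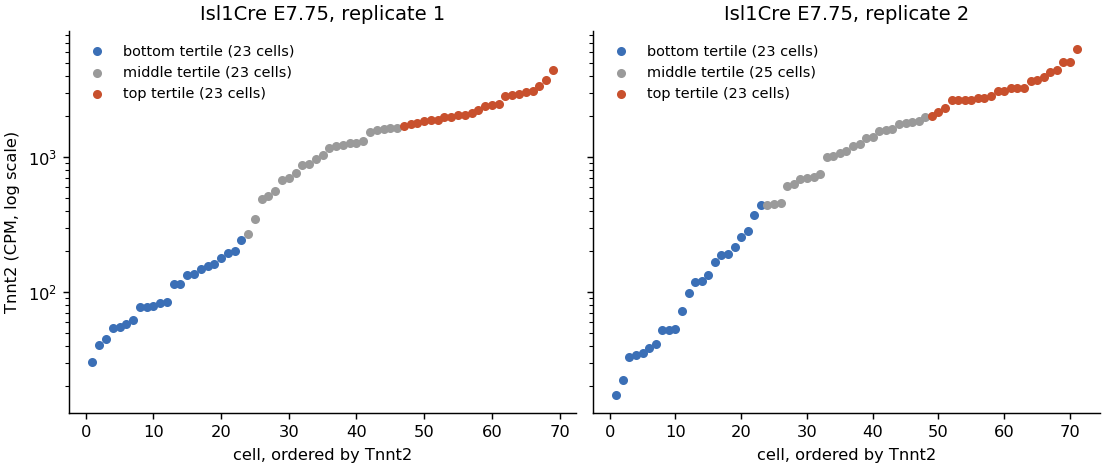
Tnnt2 level (CPM, log scale) of each kept Isl1Cre E7.75 cell, ordered from low to high within each library, with points coloured by tertile. Cells run from 30.3 to 4437.1 CPM in replicate 1 and from 17.1 to 6356.9 CPM in replicate 2.

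Myl7, Myl4 and Tpm1 were among the genes that followed Tnnt2 most closely, and Ncl, Ptma and Npm1 among those that ran most against it. Of 4814 genes other than Tnnt2 that averaged at least 20 CPM and were seen in at least 25% of cells in both libraries, 129 (2.68%) rose, meaning a rank correlation with Tnnt2 of at least 0.3 in both libraries, and 79 (1.64%) fell, meaning at most −0.3 in both. Between the top and the bottom tertile, 171 genes (3.55%) were at least 2-fold higher in both libraries and 103 (2.14%) at least 2-fold lower, on the log2(CPM + 1) scale. The median correlation over all these genes was −0.012 and −0.046. A gene can pass the level filter through 1 tertile alone, so counts over members that passed do not describe a whole list. The 50 genes highest in replicate 1 had a median of 0.706 in replicate 2, and those of replicate 2 a median of 0.629 in replicate 1. For the 50 lowest genes these medians were −0.336 and −0.31.

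**Figure D2:**
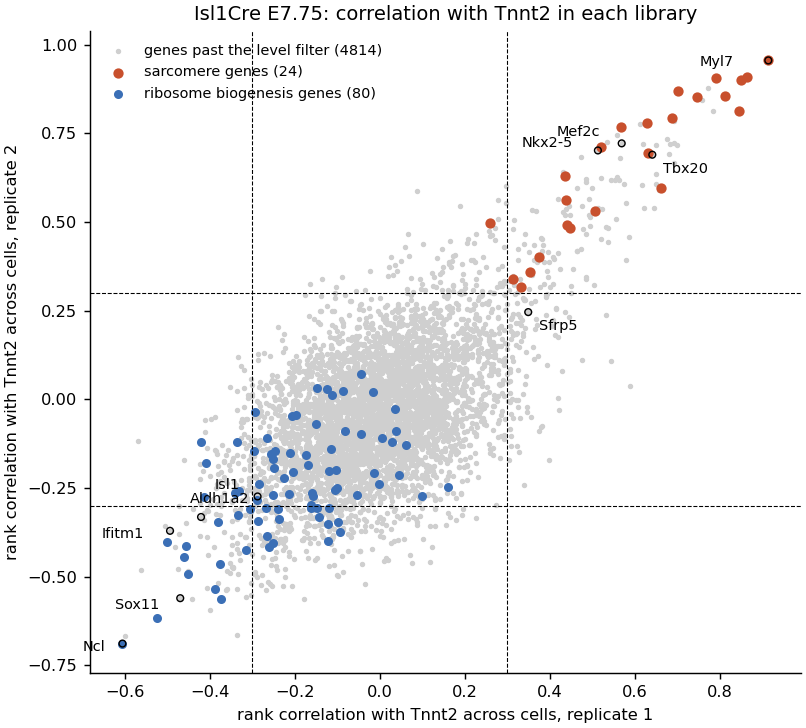
Rank correlation of each of 4814 genes with Tnnt2 across cells of Isl1Cre E7.75 replicate 1 (69 cells) and replicate 2 (71 cells), with sarcomere genes in red, ribosome biogenesis genes in blue, other genes in grey, named genes circled and dashed lines at 0.3 and −0.3. The sarcomere genes lie at the upper right, with Myl7 at 0.914 and 0.956, and Ncl at the lower left, at −0.606 and −0.689.

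Sarcomere genes followed Tnnt2 most closely. Of 40 listed genes, 24 besides Tnnt2 passed the filter, and 23 of them rose and 0 fell, with median correlations of 0.598 and 0.704. Of all 4814 genes 2.68% rose and 1.64% fell. Myl7 was the closest, with 0.914 and 0.956. It was detected in every cell, from 141.6 to 10416.3 CPM in replicate 1 and from 128.4 to 14141.5 CPM in replicate 2, so cells low in Tnnt2 also held Myl7 counts. Myl4, the embryonic atrial essential light chain, had 0.865 and 0.908, and Tpm1, tropomyosin, 0.85 and 0.902. The 1 sarcomere gene that did not pass the limit was Myl2, the ventricular light chain, with 0.259 and 0.497.

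Within the sarcomere the size of the difference between tertiles varied. Ttn, the giant spring protein titin, averaged 22.7, 420.9 and 1240.05 CPM over the tertiles of replicate 1 and 35.01, 491.1 and 1255.5 CPM in replicate 2, a log2 difference of top over bottom of 5.71 and 5.12. Actc1 averaged 105.3, 585 and 2141.1 CPM over the tertiles of replicate 1 and 56.3, 603.6 and 2323.6 CPM in replicate 2 (4.33 and 5.34). Tpm1 began high and went from 530.3 to 3434.2 CPM in replicate 1 and from 574.8 to 4170.4 CPM in replicate 2 (2.69 and 2.86). Both myosin heavy chain genes had low counts in the bottom tertile: Myh6 went from 11.8 to 302.99 CPM and from 13.1 to 417.5 CPM, and Myh7 from 11.96 to 50.8 CPM and from 11.2 to 64.9 CPM. All of these genes were higher in the top than in the bottom tertile of both libraries. The 39 listed sarcomere genes without Tnnt2 made up 0.24% and 0.23% of a cell's counts in the bottom tertile and 2.27% and 2.58% in the top tertile.

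Genes of the actin cytoskeleton and targets of serum response factor, a list put together after the values were seen, gave 19 rising and 0 falling genes of 41 past the filter. Of all 4814 genes 2.68% rose and 1.64% fell. As the values were known when the list was made, its count is a description only. Nexn, an actin-binding Z-disc protein, went from 70.7 to 1076.5 CPM and from 70.9 to 1254.4 CPM, with correlations of 0.772 and 0.879. Acta2, smooth muscle alpha-actin, had 0.702 and 0.871, and Dstn, an actin-depolymerising factor, 0.758 and 0.844. Dusp22, a phosphatase, reached 0.783 and 0.812 and was among the 15 highest together with Sh3bgr, Cryab and the uncharacterised 5430431A17Rik. Myocd, which encodes myocardin, went from 27.5 to 317.5 CPM in replicate 1 and from 35.98 to 553.2 CPM in replicate 2, with correlations of 0.7 and 0.717.

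Most listed calcium handling genes were too low to be ranked. Of 28 listed genes 6 passed the filter and 4 rose: Ryr2, the calcium release channel (0.616 and 0.604), Slc8a1, the sodium-calcium exchanger (0.563 and 0.62), Popdc2 (0.474 and 0.684) and Atp2a2, the calcium pump of the sarcoplasmic reticulum (0.556 and 0.509). The shares over all 4814 genes were 2.68% rising and 1.64% falling, and a list of 6 tells little. Slc8a1 went from 5.83 to 87.8 CPM in replicate 1 and from 7.04 to 118.9 CPM in replicate 2. Gja1, which encodes the gap junction protein connexin 43, was the 1 that fell, from 122.2 to 33.9 CPM and from 136.5 to 59.4 CPM, with correlations of −0.408 and −0.388.

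Of 13 heart transcription factors and cofactors past the filter, 7 rose and 0 fell: Myocd, Tbx20, Mef2c, Nkx2-5, Gata5, Tbx5 and Smarcd3 rose. The 7 were 53.8% of the 13, against 2.68% rising and 1.64% falling over all 4814 genes. Nkx2-5 was detected in 88.4% and 95.8% of cells and averaged 73.2, 202.7 and 335.5 CPM over the tertiles of replicate 1 and 79.3, 218.95 and 408.3 CPM in replicate 2. Mef2c averaged 73.1, 423.8 and 534.1 CPM over the tertiles of replicate 1 and 99.6, 443.8 and 605.8 CPM in replicate 2, so its largest step lay between the bottom and the middle tertile. Tbx20 had correlations of 0.641 and 0.69. Tbx5, a factor of the first heart field and the inflow, was seen in 21.7% (9.7 to 41.9%) and 34.8% (18.8 to 55.1%) of bottom-tertile cells and in 82.6% (62.9 to 93%) and 78.3% (58.1 to 90.3%) of top-tertile cells. After every cell was thinned to 20000 counts, leaving out 4 and 2 shallower cells, Tbx5 was seen in 4.76% and 13.04% of bottom-tertile and 57.1% and 52.2% of top-tertile cells. The rank correlations of Gata4 and Hand2 stayed within 0.2 of 0, with 0.198 and 0.15 for Gata4 and −0.084 and −0.061 for Hand2. Gata4 averaged 28.9, 99.99 and 75.1 CPM over the tertiles of replicate 1 and 37.6, 92.8 and 74.5 CPM in replicate 2. Its mean was thus lowest in the bottom tertile of both libraries. Gata4 was seen in 47.8%, 69.6% and 69.6% of cells over the tertiles of replicate 1 but in 82.6%, 68% and 69.6% in replicate 2. After thinning the shares in replicate 2 were 47.8%, 30.4% and 60.9%. The share of cells therefore did not follow the mean in replicate 2. Hand1, which did not pass the filter, averaged 10.6, 31.1 and 10.8 CPM over the tertiles of replicate 1 and 11.8, 30.7 and 7.99 CPM in replicate 2, highest in the middle tertile of both libraries. It was seen in 17.4% and 22.5% of cells, and the highest cells held 436.1 and 513.9 CPM. Single cells can therefore carry much of these means.

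Isl1, whose locus drives the Cre, was seen in 40.6% (29.8 to 52.4%) and 46.5% (35.4 to 58%) of kept cells, and in 14.3% and 0% of the 14 and 6 left-out endothelial cells. In the 8 and 8 left-out Epcam cells Isl1 was seen in 87.5% and 75%, a larger share than in kept cells. Along the Tnnt2 order it averaged 37.5, 29.2 and 10.1 CPM over the tertiles of replicate 1 and 46.05, 39.1 and 18.96 CPM in replicate 2, with correlations of −0.288 and −0.274, just short of the limit. Counts of both Isl1 and Nkx2-5 were seen in 27 and 32 cells, of Isl1 alone in 1 and 1, of Nkx2-5 alone in 34 and 36 and of neither in 7 and 2. As Nkx2-5 was seen in most cells, this shows no association, and the rank correlation of both genes was 0.036 and −0.199. After thinning, Isl1 was seen in 33.3% and 34.8% of bottom-tertile, 39.1% and 43.5% of middle-tertile and 19.05% and 21.7% of top-tertile cells, and its mean correlation was −0.168.

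**Figure D3:**
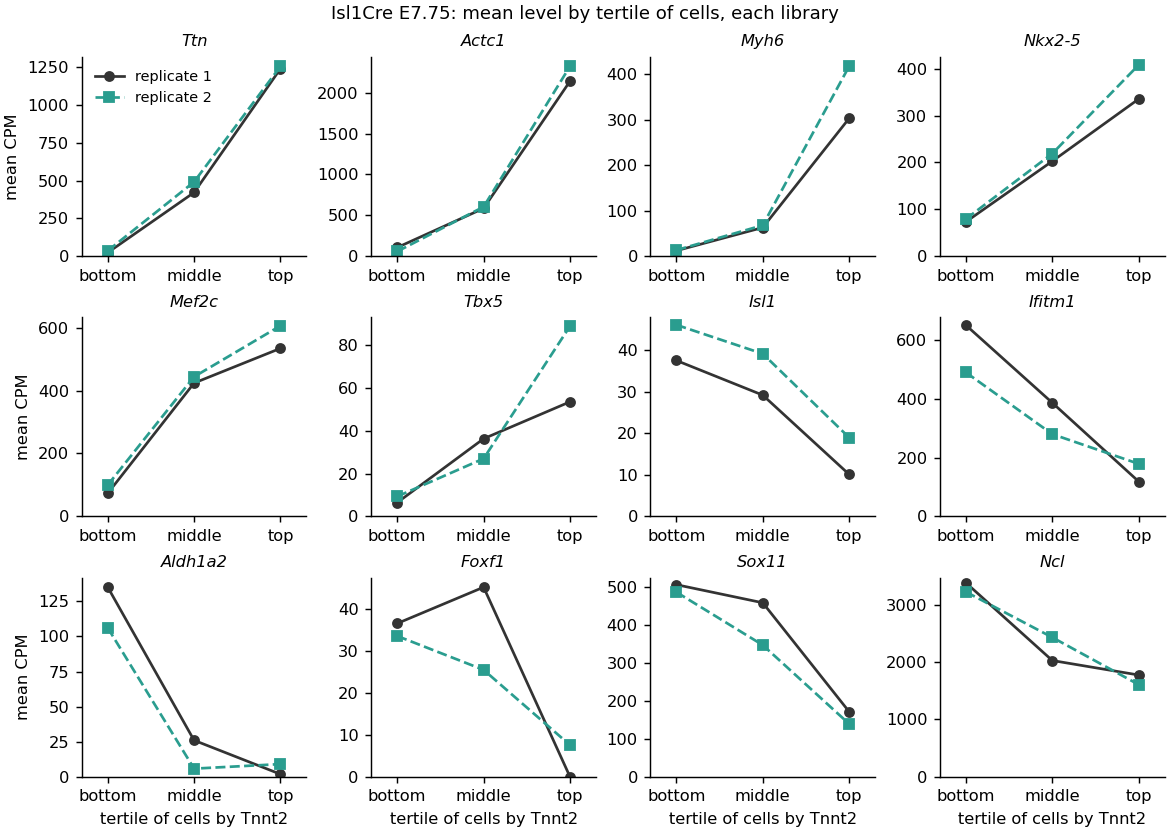
Mean level (CPM) of 12 genes in the bottom, middle and top tertile of cells by Tnnt2, each Isl1Cre E7.75 library drawn separately. Ttn, Actc1 and Myh6 climb in both libraries, and Isl1, Ifitm1, Aldh1a2, Foxf1, Sox11 and Ncl are lower in the top than in the bottom tertile of both.

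Genes of the posterior second heart field ran both ways. Of 12 members past the filter, Tbx5 and Wnt2 rose, and Nr2f2, Aldh1a2 and Foxf1 fell (16.7% and 25%, against 2.68% and 1.64% of all 4814 genes). Wnt2, a ligand of the inflow region, went from 18.6 to 109.4 CPM and from 29.98 to 118.6 CPM. Aldh1a2 averaged 135.2, 25.96 and 1.8 CPM over the tertiles of replicate 1 and 106.2, 5.76 and 8.99 CPM in replicate 2, so its counts lay mainly in the bottom tertile. Foxf1, a hedgehog-responsive mesoderm factor, averaged 36.6, 45.2 and 0 CPM over the tertiles of replicate 1 and 33.6, 25.5 and 7.55 CPM in replicate 2. Below the level filter, Osr1 went from 42.1 to 0.76 CPM and from 69.5 to 4.11 CPM, and Hoxb1 from 45.8 to 1.21 CPM and from 27.4 to 0.15 CPM. Tbx1, a factor of the anterior second heart field that was also below the filter, averaged 25.1 and 16.4 CPM in the bottom tertile and had counts in 0 of 23 top-tertile cells of each library, which allows a share of cells with a count of up to 13.0%.

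Retinoic acid genes had the lowest medians of the 6 signalling lists, −0.305 and −0.319 over 6 genes past the filter, of which Nr2f2, Crabp1 and Aldh1a2 fell and 0 rose. Nr2f2, an orphan nuclear receptor of atrial and venous cells, went from 39.04 to 3.34 CPM and from 50.3 to 3.65 CPM. Crabp1, a retinoic acid-binding protein, went from 128.3 to 53.6 CPM and from 142.95 to 45.4 CPM. Of 4 hedgehog genes Foxf1 fell, while Ptch1, receptor and target of the pathway, had −0.141 and −0.016. Among 15 BMP and TGF-beta genes Tdgf1, the Nodal coreceptor Cripto, rose and Id3, a target of BMP signals, fell (−0.304 and −0.553). Tdgf1 was steep, going from 9.04 to 264.2 CPM and from 8.96 to 298.4 CPM. Bmp2 had 0.288 and 0.376, past 0.3 in 1 library only. Among 12 Wnt genes Wnt2 rose and Fzd2, a receptor, fell (−0.354 and −0.49). Of 7 FGF and 4 Notch genes 0 rose and 0 fell, with Fgf8 at 0.166 and 0.447. Lists this small tell little, as 2.68% of all 4814 genes rose and 1.64% fell.

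Of the 5 markers of the population Ifitm1 alone passed the limit, and it fell. It averaged 649.3, 385.9 and 118.5 CPM over the tertiles of replicate 1 and 488.9, 279.4 and 178.6 CPM in replicate 2, with correlations of −0.494 and −0.371. Sfrp5, a secreted Wnt inhibitor, averaged 53.6, 257.3 and 205.2 CPM over the tertiles of replicate 1 and 83.9, 216.6 and 169.1 CPM in replicate 2, lowest in the bottom tertile of both. Ntng1, a membrane-anchored netrin, had 0.256 and 0.165, and Pdgfra 0.073 and 0.281. Among 171 pairs of 19 panel genes outside the sarcomere, 15 pairs passed 0.3 and 2 passed −0.3 in both libraries. Aldh1a2 went with Ifitm1 (0.463 and 0.381) and with Foxf1 (0.33 and 0.397). Tbx20 was opposed to Ifitm1 (−0.463 and −0.447) and Nkx2-5 to Foxf1 (−0.419 and −0.402). Sfrp5 went with Mef2c (0.433 and 0.359), Tbx5 (0.335 and 0.509) and Gata4 (0.385 and 0.372).

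Ncl, Ptma and Npm1 were among the 15 genes with the lowest correlations. Ncl, nucleolin, averaged 3381.1, 2026.04 and 1773.4 CPM over the tertiles of replicate 1 and 3223, 2429.3 and 1605.7 CPM in replicate 2, with −0.606 and −0.689. Ptma, prothymosin alpha, had −0.6 and −0.667, and Npm1, nucleophosmin, −0.524 and −0.616. Gnl3, Ddx21, Wdr43, Nop58 and Gas5, a small nucleolar RNA host gene, were also among the 15 lowest. In a list of ribosome biogenesis genes put together after these values were seen, 13 of 80 genes past the filter fell and 0 rose. Of all 4814 genes 1.64% fell and 2.68% rose. Correlations of 66 of the 80 were negative in both libraries, against 1904 of all 4814 genes. The 88 listed genes together made up 1.94% and 1.89% of a cell's counts in the bottom tertile and 1.23% and 1.15% in the top tertile. Of 37 ribosomal protein genes 2 fell, Rpl13a and Rps20 (5.4%, against 1.64% of all 4814 genes). The median log2 difference of top over bottom of the 37 was −0.11 and −0.15.

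Some transcription, RNA-binding and S phase genes also fell. Sox11, a progenitor transcription factor, averaged 505.9, 458.3 and 171.3 CPM over the tertiles of replicate 1 and 486.3, 346.8 and 139.2 CPM in replicate 2. Lin28b, an RNA-binding regulator of developmental timing, went from 88.4 to 17.2 CPM and from 61.9 to 19.7 CPM, and Igf2bp1, another RNA-binding protein, from 527.2 to 330.7 CPM and from 701.5 to 438.2 CPM. Of 31 S phase genes Hells and Mcm2 fell and 25 were negative in both libraries (of all 4814 genes 1904 were), while of 41 G2 and M phase genes 0 rose and 0 fell. Cdkn1c, which encodes the cell cycle inhibitor p57, rose from 70.9 to 457.8 CPM and from 135.8 to 680.95 CPM. Of 52 oxidative phosphorylation and 18 glycolysis genes past the filter 0 rose and 0 fell. Over all 4814 genes 2.68% rose and 1.64% fell, so 0 in lists of this size tells little, also for G2 and M phase genes. Fos was the 1 of 7 dissociation stress genes that rose, from 27.04 to 232.9 CPM and from 41.2 to 202.4 CPM.

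The summed mean level of endothelial markers was lower in the top than in the bottom tertile of both libraries. Median depth was so in replicate 2. Over 16 markers the sum was 373.7, 356.7 and 176.6 CPM over the tertiles of replicate 1 and 216.9, 119.8 and 73.5 CPM in replicate 2. Of these markers 5 and 4 were seen in 25% of cells and 0 were at 0 in every cell. Per cell the sum ran from 0 to 4561.3 CPM around a median of 139.8 in replicate 1. In replicate 2 it ran from 0 to 2187 CPM around 85.4. The highest cells lay far above the medians, so single cells can carry much of these means. When fewer than 2 endothelial genes were allowed per cell, 141 genes rose and 78 fell, and the mean correlation of both libraries was −0.655 for Ncl, −0.458 for Aldh1a2 and −0.456 for Ifitm1. Thinning to 20000 counts gave 119 rising and 44 falling genes. The mean correlation then ran from −0.602 for Ncl to −0.301 for Lpar6 over the 15 lowest genes, against −0.647 and −0.421 before, with Hspe1 going from −0.522 to −0.362 and Npm1 from −0.57 to −0.479, and Ifitm1 had −0.364. Aldh1a2 and Foxf1 did not pass the level filter after thinning. The 9 endoderm and epithelial markers summed to 150.4, 129.1 and 90.2 CPM and 47.8, 33.1 and 59 CPM, with 3 and 3 seen in 25% of cells and 0 at 0 in every cell, and their part was not tested.

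In Nkx2-5Cre embryos of the same stage, cells chosen by the same rule began from a higher Tnnt2 level. Their bottom tertiles averaged 731.05 and 647.5 CPM of Tnnt2 and their top tertiles 3530.01 and 3587.3 CPM, so the log2 span of Tnnt2 was 2.27 and 2.47 against 4.48 and 4.67 in Isl1Cre. The median correlation of sarcomere genes was 0.8 and 0.718 there. That of heart transcription factors was 0.304 and 0.156, against 0.37 and 0.443 in Isl1Cre. These medians cover genes that passed the level filter in the Isl1Cre libraries, whatever their level in Nkx2-5Cre, so the choice of genes was one-sided. The summed ribosome biogenesis genes had a correlation with Tnnt2 of −0.844 and −0.717 in Nkx2-5Cre and −0.719 and −0.768 in Isl1Cre.

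**Figure D4:**
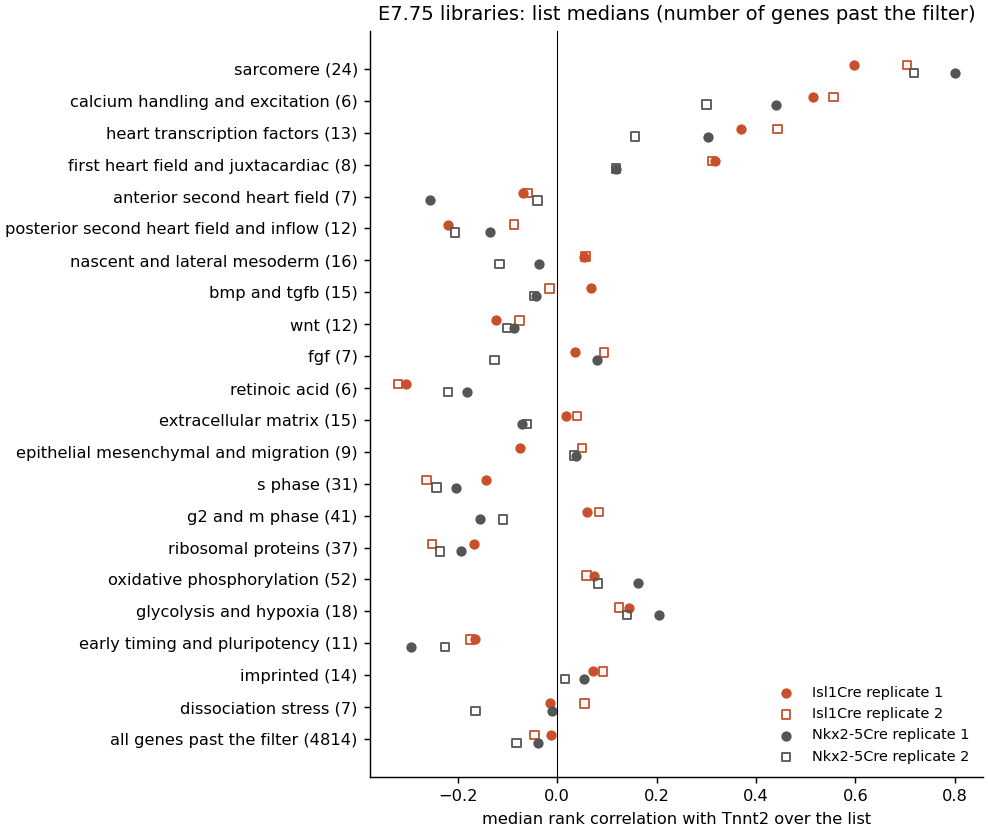
Median rank correlation with Tnnt2 over the genes past the filter of each list, for 2 Isl1Cre (red) and 2 Nkx2-5Cre (grey) E7.75 libraries, circles for replicate 1 and open squares for replicate 2. The filter was that of the Isl1Cre libraries alone. Sarcomere medians lie between 0.598 and 0.8 in the 4 libraries.

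The difference between these gradients was tested as the log2 of top over bottom tertile per library, with limma. Of 5408 genes 0 passed an adjusted p of 0.05 in either direction (0.0% of those tested), and 303 higher and 192 lower genes had an unadjusted p under 0.05. The smallest adjusted p was 0.439, which does not show that the gradients were alike. Tbx5 had 2.87 and 3.12 in Isl1Cre and 1.08 and 0.28 in Nkx2-5Cre (limma adjusted p = 0.439). Sfrp5 was higher in the top tertile of both Isl1Cre libraries (1.92 and 1.00) and lower in that of both Nkx2-5Cre libraries (−0.84 and −0.46), again with a limma adjusted p of 0.439. Tnnt2 itself spanned more in Isl1Cre, and its part in these differences was not tested.

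**Figure D5:**
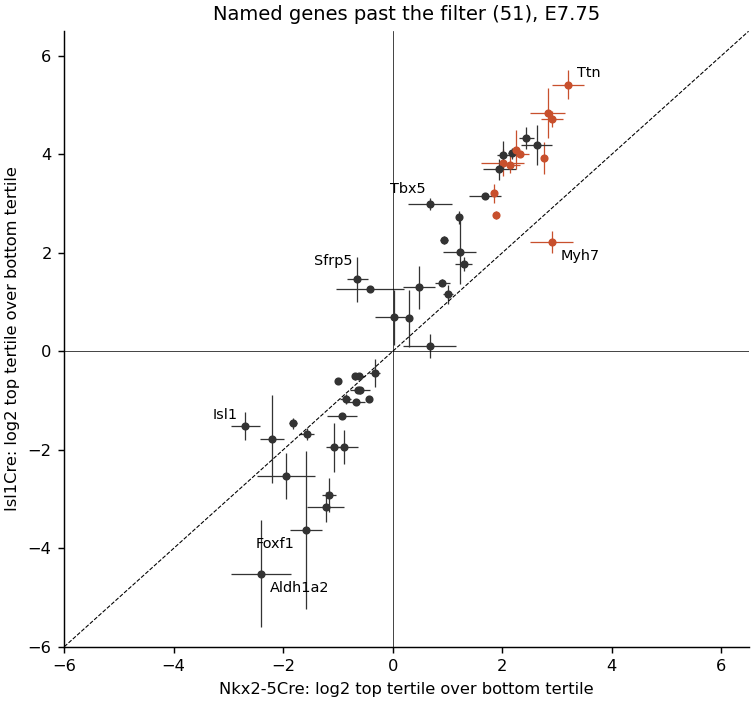
Log2 of top over bottom tertile by Tnnt2 for 51 named genes past the filter, Nkx2-5Cre (horizontal) against Isl1Cre (vertical) at E7.75; points are means and bars the range of 2 libraries, sarcomere genes in red. The filter was that of the Isl1Cre libraries alone. Ttn and Tbx5 have larger values in Isl1Cre, and Sfrp5 is positive in Isl1Cre and negative in Nkx2-5Cre.

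Averaged over cells, Isl1Cre libraries held less sarcomere RNA than Nkx2-5Cre libraries. In the limma fit of log2(mean CPM + 1) over all 15 libraries, 325 of 10564 genes (3.08%) were higher and 376 (3.56%) lower in Isl1Cre at an adjusted p of 0.05, and 26 of 38 sarcomere genes were lower and 0 higher, with a median log2 difference of −1.08 against −0.04 over all genes. Actc1 averaged 943.8 and 983.5 CPM in Isl1Cre and 3367.97 and 2321.3 CPM in Nkx2-5Cre (−1.47 ± 0.16 SE), and Myh7 33.7 and 27.7 CPM against 157.4 and 121.8 CPM (−2.08 ± 0.18 SE). Myl7 averaged 3048.1 and 3176.7 CPM against 5004.8 and 4763.8 CPM (−0.58 ± 0.09 SE). Dcp1b, Actn2, Acta1, Casq1 and Spink1 were among the 6 largest changes downward. Actn2, the Z-disc protein alpha-actinin, was at 10.1 and 8.92 CPM in Isl1Cre and 73.8 and 51.03 CPM in Nkx2-5Cre (−2.51 ± 0.20 SE). A mean over cells cannot tell fewer cells with a gene from less RNA per cell.

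Ncl and Ptma were higher in Isl1Cre. Ncl averaged 2393.5 and 2419.6 CPM against 919.6 and 1020.8 CPM (1.38 ± 0.20 SE), and Ptma differed by 0.79 ± 0.11 SE. Of 88 ribosome biogenesis genes 15 were higher and 0 lower, and of 37 ribosomal protein genes 0 were higher and 1 lower. Over all 10564 genes 3.08% were higher and 3.56% lower. The 6 largest changes upward were Erdr1, Gas5, the predicted gene Gm1821, Rgs5, Supt16 and Kif20b. Counting can split near-identical gene copies, so the value of a predicted gene such as Gm1821 is uncertain. Gas5 averaged 376.6 and 367.8 CPM in Isl1Cre and at most 74.5 CPM in Nkx2-5Cre (2.52 ± 0.15 SE). Bmp2 (58.6 and 56.3 against 20.2 and 24.9 CPM, limma adjusted p = 0.00579) and Ptch1 (32.5 and 61.4 against 7.85 and 11.8 CPM, limma adjusted p = 0.0176) were also higher, and Hand1 was lower (17.5 and 17.2 against 58.7 and 66.9 CPM, limma adjusted p = 0.00431). Nkx2-5 (−0.15 ± 0.15 SE), Isl1 (−0.61 ± 0.39 SE) and Ttn (−0.36 ± 0.21 SE) did not pass the test.

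Leaving out any library of these groups gave fewer calls. It leaves 1 library in a group, so fewer calls do not show that a given library carried them. Without Isl1Cre replicate 1 the fit called 98 genes higher and 187 lower, without Isl1Cre replicate 2 147 and 248, without Nkx2-5Cre replicate 1 118 and 210, and without Nkx2-5Cre replicate 2 203 and 241. Limma adjusted p-values went to 0.0641 for Bmp2 and 0.102 for Supt16 without Isl1Cre replicate 1, and to 0.194 for Ptch1, 0.0569 for Spink1 and 0.0728 for Supt16 without Isl1Cre replicate 2. They went to 0.0849 for Bmp2, 0.172 for Ptch1, 0.0668 for Spink1 and 0.18 for Supt16 without Nkx2-5Cre replicate 1, and to 0.0521 for Hand1 without Nkx2-5Cre replicate 2. With edgeR the adjusted p of Ptch1 was 0.0964, and without a level filter the limma adjusted p was 0.108 for Ptch1, 0.055 for Hand1, 0.0585 for Spink1 and 0.17 for Supt16. Endoderm markers other than Spink1 summed to 57.5 and 24.6 CPM in Isl1Cre and 225.2 and 73.3 CPM in Nkx2-5Cre, whose cells had medians of 357396.5 and 200553 counts. The part of both in these differences was not tested.

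From E7.75 to E8.25 within Isl1Cre, 834 genes (7.89%) were higher and 460 (4.35%) lower in the same fit, and sarcomere genes were higher for 35 of 38 and lower for 1. Tnnt2 went from 1198.8 and 1542.1 CPM to 3746.8 and 4043.5 CPM, and Myh7 from 33.7 and 27.7 CPM to 406.7 and 545.8 CPM (3.82 ± 0.18 SE). Ptma (−0.96 ± 0.11 SE) and Npm1 (−0.91 ± 0.10 SE) were lower at E8.25, as were Ifitm1 (−1.58 ± 0.37 SE, limma adjusted p = 0.00767) and Isl1 (−1.43 ± 0.39 SE, limma adjusted p = 0.0187). The Isl1 call was lost without E7.75 replicate 2, E8.25 replicate 1 or E8.25 replicate 2 (limma adjusted p of 0.141, 0.111 and 0.0798), after thinning (0.0833) and with edgeR (0.149) and DESeq2 (0.109). The Ifitm1 call was lost without E7.75 replicate 1 (0.0939) or E8.25 replicate 2 (0.0853) and without a level filter (0.0611). This comparison uses the same Isl1Cre E7.75 libraries as the comparison of lineages. The stages come from different embryos, possibly 1 per stage, so stage cannot be told apart from embryo.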

How the data were processed

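Single cells of embryonic mouse hearts were sorted, or dissociated only, and picked by mouth pipette, and tagged 3′ cDNA ends were sequenced, per the labels' protocols. CASAVA 1.8, TopHat2 2.0.12, HTSeq and mm10 appear in the submitters' processing notes, and their settings are not given in the sources used here. The deposited values are CPM, calculated by the authors, for 23154 genes in each cell. Values of up to 20 steps were whole multiples of 1 count in 100% of cases (tolerance 0.1 step), which gave back whole counts; the sources used here do not say if these are reads or molecules.

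Rank correlations were computed across cells within a library. Across libraries, limma 3.58.1 (R 4.3.3, trended, 7 residual degrees of freedom) was run on log2(mean CPM + 1) with TMM scaling, for genes of at least 5 CPM in at least 2 of 15 libraries, with Benjamini-Hochberg adjustment at 0.05. All groups entered 1 fit and share its spread. Genes of the cell rule were part of the fits and were left out of the counts of genes. Total counts of kept cells were 10327156 and 12001561 in the Isl1Cre E7.75 libraries and 6817775 to 32327466 over all 15. The scripts were tested on simulated data. Alternatives were edgeR 4.0.16 and DESeq2 1.42.0 on the recovered counts, other filters, thinning and left-out libraries. No doublet caller was run. The Isl1Cre E7.75 replicates correlated with r = 0.958 across 10570 genes.

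Members and gene lists were chosen with earlier results of these data known, and the ribosome biogenesis and actin lists after the values here were seen. Named genes are a panel, the 15 highest and 15 lowest by the smaller correlation of both libraries, the 6 largest passing changes each way between lineages (mean log2 level 5 or more) and up to 4 leading members of each list. Other named genes were chosen after their values were seen. A gene that these rules would name is not reported here.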

Additional observations from a re-analysis of the deposited data

How the results depend on the processing

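Along the Tnnt2 order, rising genes numbered 119 to 166 under the other orderings, cell filters, depth and level filters tried. By 1 library alone, 234 to 240 genes rose, 194 to 378 fell, 432 to 448 were at least 2-fold higher and 424 to 457 at least 2-fold lower, since 1 library then has to pass and not both. Falling genes numbered 36 when sarcomere genes ordered the cells and 44 after thinning. Without a level filter 651 genes were at least 2-fold higher and 710 lower, with more genes tested. Genes at least 2-fold lower numbered 61 when cells were split at the median, 157 by quartiles and 58 with a pseudocount of 10; the cause was not tested. Among the values of named genes, 431 rank correlations stayed within the spread of both libraries, 85 moved by more, and 0 called ones changed sign.

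Between lineages, leaving out a library gave 98 to 203 genes higher and 187 to 248 lower. No level filter gave 170 higher, the 4 E7.75 libraries alone 535 higher, and DESeq2 577 lower; the cause was not tested. edgeR, added after seeing the data, called 243 and 368. Between stages, leaving out a library gave 467 to 550 higher and 180 to 219 lower. CPM without TMM gave 280 higher and 446 lower between lineages and 988 and 352 between stages. With the replicate block the counts were 373 higher and 404 lower between lineages, 833 and 505 between stages and 0 for the gradients. Deviations of same-numbered libraries correlated with r from −0.019 to 0.131 over 21 pairs of groups, so the numbers were not taken to pair the samples. The difference of gradients was 0 genes in each direction under every alternative run.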

Other observations

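Some genes varied widely between Isl1Cre E7.75 cells without following Tnnt2. The 60 genes described are those whose standard deviation of log2(CPM + 10) most exceeded that of genes of like level in both libraries. Of them 34 rose with Tnnt2, a count that includes Tnnt2 itself, and 2 fell. Over all 4814 genes other than Tnnt2, 2.68% rose and 1.64% fell. Correlations of 13 of the 60 lay within 0.2 of 0 in both libraries. The first of these 13 was Phlda2, an imprinted growth gene, with 0.059 and −0.156. Phlda2 ranged from 0 to 6038.6 CPM around a median of 782.6 in replicate 1 and from 14.1 to 5772.2 CPM around 727.4 in replicate 2. Its rank correlation across cells, chosen for description after its spread was seen, passed 0.3 in both libraries for 15 of 4814 genes. Among them were Pmp22 (0.408 and 0.441), Msx2, a BMP-responsive homeobox gene (0.392 and 0.356), and the keratin gene Krt18 (0.384 and 0.34). It passed −0.3 for 1 of the 4814, Frat1 (−0.366 and −0.475). Apoe, a lipid carrier gene, ranged from 29.3 to 2835.1 CPM around a median of 590.5 in replicate 1 and from 4.28 to 2444.3 CPM around 812.2 in replicate 2. Top2a and Kpna2, which are high in dividing cells, were also among the 13, with −0.003 and 0.084 for Top2a.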
